A study of Laetiporus sulphureus with 6 samples.

Results

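The β-glucosidase families of *Laetiporus sulphureus* ATCC 52600, a brown-rot basidiomycete, were represented by 7 genes, 2 of glycoside hydrolase family 1 (GH1: g3105 and g1578) and 5 of family 3 (GH3: g2032, g7390, g5210, g10482 and g11777). They were taken from the study's table of wood-decay genes as all entries whose carbohydrate-active enzyme (CAZyme) domain was GH1 or GH3, and all 7 were among the 10015 genes of the count table. RNA was sequenced from mycelium kept for 24 h with 1 g of in natura (untreated) sugarcane bagasse in 100 mL of mineral medium at pH 7 (BIN, 3 cultures), and from the 7-day liquid pre-inoculum before that transfer (T0, 3 cultures). Every culture was of the same strain, started from agar discs and shaken at 180 rpm and 30 °C. Contact with bagasse and the move out of the pre-culture medium came together in BIN and cannot be told apart. In RNA from whole mycelium, a change in the amount of RNA per cell cannot be told apart from one in the share of cells that make it.

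β-Glucosidases carry out the last hydrolytic step of cellulose breakdown. Endoglucanases, cellobiohydrolases and lytic polysaccharide monooxygenases shorten the chains to cellobiose and other short oligomers, and β-glucosidases split these into glucose that transporters can take up. Fungal GH1 enzymes are often intracellular, whereas many GH3 enzymes are secreted, and GH3 also holds β-xylosidases, which remove xylose from the ends of xylo-oligomers. The annotation of the genes bears the name β-glucosidase for 6 of the 7. Both GH1 genes carried a Gene Ontology term for cellobiose-splitting glucosidase activity and 4 GH3 genes one for β-glucosidase activity, while g7390 carried a term for β-xylosidase activity and was treated as a GH3 member only.

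The libraries held 9541028 to 15331728 counts. Calls of higher or lower in BIN required a Benjamini-Hochberg adjusted p of 0.05 or less in edgeR's quasi-likelihood test over all genes, together with a log2 fold change of 1 or more in size. By this rule 3 of the 7 genes were called higher, the GH3 genes g2032 and g10482 and the GH1 gene g1578, against 11.3% of all genes. With edgeR 0 of the 7 were called lower, against 14.5% of all genes, and 0 had a negative fold change at an unadjusted p under 0.05. DESeq2 likewise called 3 higher and 0 lower. Without the threshold on the fold change, 5 of the 7 were higher in BIN at an adjusted p of 0.05 or less, against 35.2% of all genes. In these 5 every BIN library lay above every T0 library on CPM (counts scaled to 1000000 per library, here after edgeR's TMM normalization), which was the case for 37.6% of all genes. The other two, g3105 and g5210, had log2 fold changes close to 0. The median log2 fold change of the 7 genes was 0.96, beside -0.0038 for all genes.

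**Figure D1:**
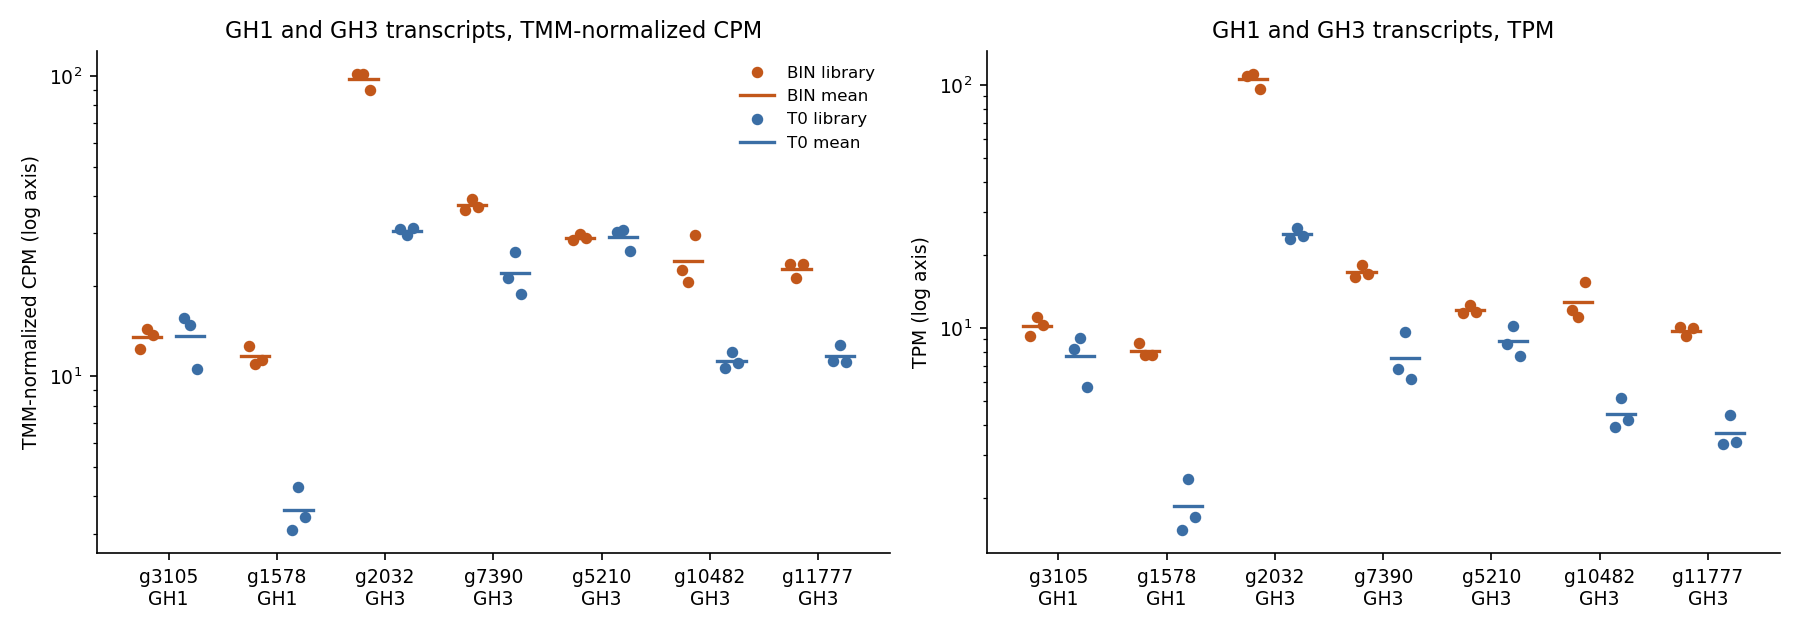
Levels of the 7 genes in each library, as TMM-normalized CPM (left) and as the deposited TPM (right), both on log axes, with BIN left of T0 for each gene. Points are libraries and bars are means of 3 libraries. On TPM, which is per gene length, the BIN points of g2032 stand highest, at 96.0 or more, and the T0 points of g1578 lowest, at 2.40 or less.

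The GH3 β-glucosidase g2032 was the most abundant member per gene length in both conditions. It was measured at 102, 101 and 89.8 TMM-normalized CPM in BIN replicates 1, 2 and 3, and at 30.9, 29.5 and 31.1 in T0 replicates 1, 2 and 3. The 3 T0 libraries were nearly equal, and the lowest BIN library still stood far above them. The means were 97.7 ± 6.84 CPM in BIN and 30.5 ± 0.846 in T0 (SD, n = 3 each), and edgeR estimated the log2 fold change at 1.68 with a standard error of 0.08 (adjusted p = 2.16e-07). By this fold change the gene ranked 427 of 10015. These values rested on 1232 to 1285 counts per library in BIN and on 271 to 449 in T0.

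The gene model of g2032 was short for its family. Gene lengths were obtained as the ratio of the deposited counts to the deposited TPM and are given relative to the median gene, which is 1. The value was 0.875 for g2032, against 1.79 for g10482, 2.07 for g7390, 2.21 for g11777 and 2.31 for g5210. As TPM divides by this length, the distance between g2032 and the other GH3 genes was wider on TPM than on CPM. The annotation was divided over whether the g2032 product carries a signal peptide for secretion, while the products of g11777 and g7390 were listed with one. The study identified the proteins of g2032, g11777 and g7390 in culture supernatants, from separate and longer cultures. Their substrates included bagasse, but steam-exploded, whereas that of BIN was untreated. On steam-exploded bagasse the study reported the proteins of g2032, g11777 and g7390 as upregulated relative to glucose.

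A second GH3 β-glucosidase, g10482, was called higher but by less, and less evenly. It was measured at 22.6, 20.6 and 29.5 TMM-normalized CPM in BIN replicates 1, 2 and 3, and at 10.7, 12.1 and 11.1 in T0. BIN replicate 3 stood apart from the other BIN libraries, so that the coefficient of variation was 19.3% in BIN, the highest of the 7 genes there, against 6.16% in T0. edgeR estimated the log2 fold change at 1.10 with a standard error of 0.15 (adjusted p = 0.000152), at means of 24.2 ± 4.67 CPM in BIN and 11.3 ± 0.695 in T0 (SD, n = 3 each). The gene was not called without BIN replicate 3 (log2 fold change 0.93), after correction for a gene-length trend (0.84), or by edgeR's glmTreat, which tests for a change beyond the threshold itself (adjusted p = 0.46).

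The GH3 β-glucosidase g11777 and the GH3 β-xylosidase g7390 fell short of the threshold on the fold change. For g11777 the libraries gave 23.7, 21.3 and 23.6 TMM-normalized CPM in BIN replicates 1, 2 and 3, and 11.3, 12.7 and 11.2 in T0. The ranges did not overlap, and the edgeR estimate, 0.96 on the log2 scale with a standard error of 0.11 (adjusted p = 4.95e-05), lay just under 1. It was at 1.01 without BIN replicate 2 and at 1.02 without T0 replicate 2, where the gene was called, and at 0.57 after correction for a gene-length trend. For g7390 the libraries gave 35.9, 39.1 and 36.7 CPM in BIN and 21.3, 25.9 and 18.8 in T0. BIN was even here and T0 was not, with T0 replicate 2 the highest. That library was also the highest of T0 on CPM for g1578, g5210, g10482 and g11777, but not for g2032 or g3105. Over all genes, T0 replicate 2 correlated at 0.980 and 0.987 with T0 replicates 1 and 3 (Pearson, log2 CPM). T0 replicates 1 and 3 correlated with each other at 0.992. For g7390 edgeR estimated the log2 fold change at 0.76 with a standard error of 0.12 (adjusted p = 0.000442), and it was between 0.65 and 0.89 with any library left out and at 0.40 after the gene-length correction.

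The remaining GH3 β-glucosidase, g5210, gave 28.4, 29.8 and 28.8 TMM-normalized CPM in BIN replicates 1, 2 and 3, and 30.3, 30.7 and 26.3 in T0. The ranges overlapped on CPM, with means of 29.0 ± 0.724 CPM in BIN and 29.1 ± 2.47 in T0 (SD, n = 3 each). On TPM they did not overlap, at 11.5 to 12.4 in BIN and 7.67 to 10.2 in T0. All genes were shifted on that scale too, with a median log2 fold change of 0.40 on log2(TPM + 1). The edgeR log2 fold change was -0.0028, with a standard error of 0.10 (adjusted p = 0.982).

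The GH1 genes differed from each other in their response. g1578, annotated for splitting cellobiose, was the least abundant member per gene length in T0. It gave 12.7, 11.0 and 11.4 TMM-normalized CPM in BIN replicates 1, 2 and 3, and 3.08, 4.30 and 3.39 in T0. These T0 values rested on 27, 61 and 49 counts, the fewest of any member. The ranges were well separated even so, and edgeR estimated the log2 fold change at 1.68 with a standard error of 0.16 (adjusted p = 1.31e-05), equal to that of g2032 to 2 decimals. The other GH1 gene, g3105, gave 12.3, 14.4 and 13.8 CPM in BIN and 15.6, 14.8 and 10.6 in T0. The ranges overlapped on CPM, and T0 replicate 3 was the lowest library of all. On TPM, where all genes were shifted, they did not overlap, at 9.26 to 11.1 in BIN and 5.73 to 9.07 in T0. The edgeR log2 fold change of g3105 was -0.0068, with a standard error of 0.16 (adjusted p = 0.973). The mean of g3105 was 13.5 ± 1.07 CPM in BIN and 13.7 ± 2.69 in T0, and that of g1578 was 11.7 ± 0.858 CPM in BIN and 3.59 ± 0.635 in T0 (SD, n = 3 each).

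**Figure D2:**
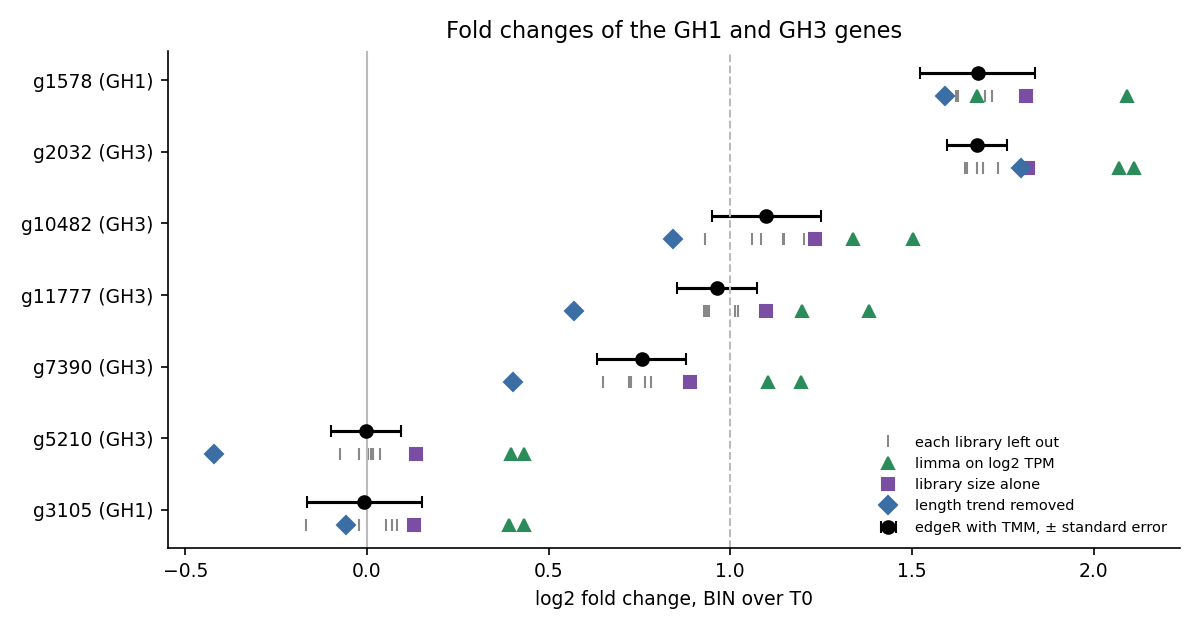
Log2 fold changes of BIN over T0 for the 7 genes. Black points are edgeR values on TMM-normalized counts with their standard errors, the other marks are alternative analyses, the solid line is at 0 and the dashed line at the threshold of 1. g1578 and g2032 lie at 1.59 or above throughout, and g7390, g10482 and g11777 lie on either side of 1. The black points of g5210 and g3105 lie near 0. Their values are 0.39 to 0.43 on log2 TPM, and -0.42 and -0.06 with the length trend removed.

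The number of members called differed between analyses, which varied in the scaling of the libraries, in the test or in a gene-length correction. When libraries were scaled by their size and no TMM factors were used, all genes had a median of 0.13, and 4 members were called higher, g11777 in addition, against 14.4% of all genes. limma on log2(TPM + 1) gave all genes a median of 0.40, and 5 members were called higher, with g7390 and g11777 in addition, against 21.3% of all genes. On log2(TPM + 0.1) values 5 were called, against 24.1%. After correction of each library for a gene-length trend, only g1578 and g2032 were called, against 11.1% of all genes, and glmTreat called the same pair, against 7.36%. The log2 fold changes of g1578 and g2032 ranged from 1.59 to 2.09 and from 1.65 to 2.11 over all 16 alternative analyses. The sign of the fold changes of g3105 and g5210 was not stable. On log2(TPM + 1) values they were 0.39 and 0.40 (limma adjusted p = 0.0573 and 0.0227), which is close to the shift of all genes on that scale, and after the gene-length correction they were -0.06 and -0.42 (edgeR adjusted p = 0.759 and 0.00251).

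Levels of different genes were compared on TPM, which is per length. In BIN the order was g2032 at 106 ± 8.34 TPM, g7390 at 17.0 ± 1.02, g10482 at 12.8 ± 2.32, g5210 at 11.9 ± 0.478, g3105 at 10.2 ± 0.932, g11777 at 9.76 ± 0.444 and g1578 at 8.04 ± 0.523 (SD, n = 3). The libraries of g10482 overlapped those of g5210, and those of g3105 overlapped those of g11777, while the other neighbours in this order did not overlap. In T0 the order was g2032 at 24.3 ± 1.35 TPM, g5210 at 8.82 ± 1.27, g3105 at 7.67 ± 1.73, g7390 at 7.51 ± 1.84, g10482 at 4.42 ± 0.645, g11777 at 3.71 ± 0.584 and g1578 at 1.85 ± 0.487 (SD, n = 3). Here g5210, g3105 and g7390 overlapped in turn, as did g10482 and g11777. Compared within each T0 library, however, g5210 stood above g3105 and g10482 above g11777 every time, whereas g3105 and g7390 changed places. The other members were weakly expressed beside the transcriptome as a whole. Over the 6 libraries, 74.0% of all genes had a lower mean TPM than g2032, whereas for the others this share was between 7.25% (g1578) and 23.5% (g7390).

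Summed over the 7 genes, the level was 177, 181 and 168 TPM in BIN replicates 1, 2 and 3, and 55.5, 66.6 and 52.8 TPM in T0. The means were 175 ± 6.87 TPM in BIN and 58.3 ± 7.31 in T0 (SD, n = 3), a ratio of 3.00. Most of this difference was g2032, since the sum without it was 69.7 ± 2.06 TPM in BIN and 34.0 ± 6.15 in T0. On TMM-normalized CPM the sum of the 7 genes was 236 ± 2.32 in BIN and 122 ± 8.87 in T0, a ratio of 1.94, so the size of the joint difference depended on the scale.

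The make-up of the family within a library does not depend on how libraries are scaled to one another, but it does depend on the division by gene length. g2032 made up 61.8%, 61.5% and 57.2% of the summed TPM of the 7 genes in BIN replicates 1, 2 and 3, and 41.7%, 38.8% and 45.4% in T0. On CPM, without that division, its share was 41.3% ± 2.50 in BIN and 25.1% ± 2.48 in T0, where g5210 had 12.3% ± 0.304 in BIN and 23.9% ± 0.659 in T0 (SD, n = 3). On TPM the shares of g5210 and g3105 were smaller in BIN, at 6.77% ± 0.232 and 5.84% ± 0.523, than in T0, at 15.1% ± 0.516 and 13.1% ± 2.02 (SD, n = 3). The share of g1578 was 4.59% ± 0.311 in BIN and 3.14% ± 0.474 in T0, and that of g7390 was 9.72% ± 0.447 in BIN and 12.8% ± 1.46 in T0. For g10482 the share was 7.32% ± 1.63 in BIN and 7.57% ± 0.441 in T0, with overlapping libraries. On CPM it was 10.3% in BIN and 9.27% in T0. For g11777 the share was 5.58% ± 0.431 in BIN and 6.35% ± 0.289 in T0, smaller in every BIN library than in any T0 library. On CPM it was nearly equal, at 9.69% in BIN and 9.61% in T0.

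**Figure D3:**
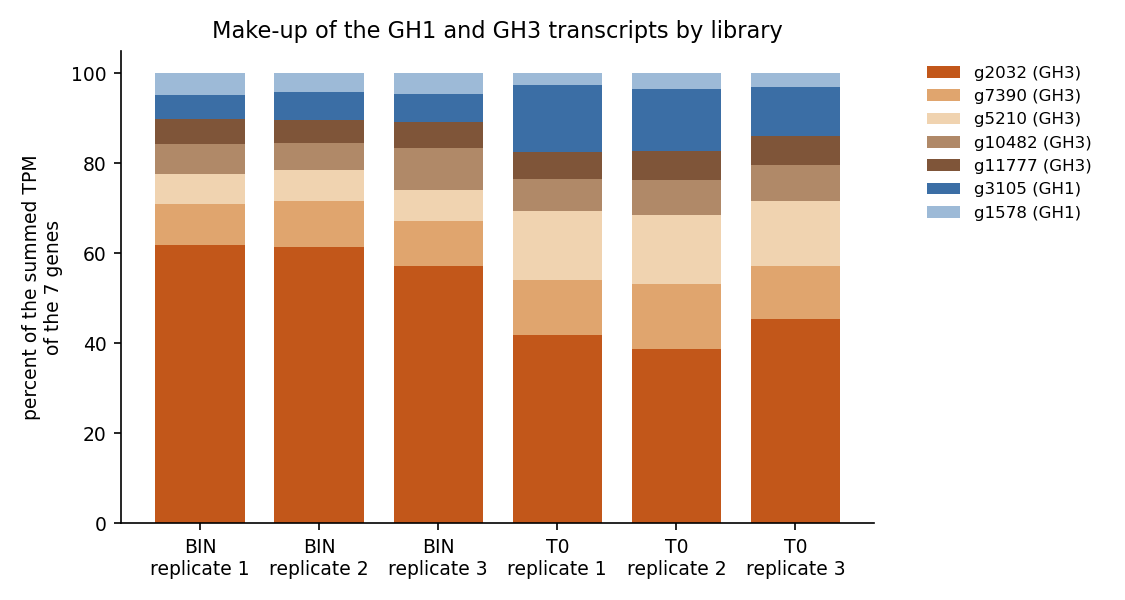
Share of each gene in the summed TPM of the 7 genes (percent, y axis) in each of the 6 libraries (x axis, BIN left of T0). g2032 takes 57.2% to 61.8% in BIN and 38.8% to 45.4% in T0, and the segments of g5210 and g3105 are narrower in every BIN library than in any T0 library.

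Each pair of members was also compared by the log2 ratio of their TPM within a library. The scaling of the libraries and the fixed length of each gene cancel out of its difference between conditions. A shift between conditions that depends on gene length does not cancel. After the gene-length correction, for example, the log2 fold changes of g3105 and g5210 were -0.06 and -0.42. For 16 of the 21 pairs the ratios of the 3 BIN libraries did not overlap those of the 3 T0 libraries. Among all pairs of the 10015 genes 75.7% did not overlap, so the count for the 7 genes was near that of any genes. An exact two-sided permutation test gave p = 0.1 for each of these, the smallest value that 3 against 3 libraries allow (adjusted p = 0.131 over the 21 pairs), so none can pass a threshold of 0.05. The ratio of g2032 to g5210 was 3.15 ± 0.103 in BIN and 1.47 ± 0.156 in T0 on the log2 scale, and that of g3105 to g1578 was 0.35 ± 0.220 in BIN and 2.06 ± 0.371 in T0 (SD, n = 3). The ratio of g2032 to g11777, another GH3 β-glucosidase, was 3.43 ± 0.162 in BIN and 2.72 ± 0.143 in T0. Of the pairs that overlapped, g1578 with g2032 and g3105 with g5210 had nearly the same ratio in both conditions, with differences of 0.04 and 0.0012. The other overlapping pairs were g7390 with g10482, g7390 with g11777 and g10482 with g11777.

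The enzymes that act before and after β-glucosidases were described from lists taken from the same table. These lists, like the 7 genes, carry no test of their own and are given beside all genes, of which 11.3% were called higher and 14.5% lower. Enzymes that cut cellulose chains (GH5_5, GH7, GH12 and AA9) numbered 7, all of them tested, with 1 higher and 0 lower and a median log2 fold change of -0.02. The gene called was g4622, an AA9 lytic polysaccharide monooxygenase, at 1.75 with a standard error of 0.27 (edgeR adjusted p = 0.000732), and the GH7 cellobiohydrolase g8442, named here as the only gene of its family after its value was seen, had -0.74 (standard error 0.14). Genes listed as glucose transporters, by annotation only, had 4 higher and 0 lower of 13 tested, with a median of 0.34. What they transport was not tested. Among those called, g6340 had the largest value, 5.22 on the log2 scale with a standard error of 0.15 (edgeR adjusted p = 1.89e-08), at 390 CPM in BIN and 10.5 in T0, and g9815 the smallest, at 1.78 (standard error 0.23).

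Other glycosidases that release sugars from chain ends (GH2, GH20, GH27, GH31, GH35 and GH95) had 6 higher and 1 lower of 15 tested and a median log2 fold change of 0.70. They ranged between the GH31 gene g3209, at 4.39, and the GH20 gene g7008, at -1.25, whose call was lost on log2(TPM + 1) values, at -0.79. Families with enzymes of β-1,3- and β-1,6-glucans (GH5_9, GH5_15, GH16, GH17, GH55 and GH128) had 8 higher and 3 lower of 30 tested and a median of 0.51, with g949 (GH16) at 3.81 and g4121 (GH5_9) at -2.47 as the extremes among called genes. Genes of families that the study relates to xylan or arabinoxylan (GH10, GH43_24, GH51 and GH115) had 1 higher and 2 lower of 8 tested. The study places GH43 there as a family, and the substrate of the GH43_24 gene was not tested. With limma on log2(TPM + 1) the genes of this list had 4 higher and 1 lower. Their median was 0.81, the GH115 gene g6326 was higher, at 1.32, and the GH51 gene g7154 was the lower of those called, at -2.01. Among all 127 tested glycoside hydrolases, 38 were higher and 17 lower, with a median of 0.42.

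The summed TPM of these lists did not all differ in the same direction. The chain-cutting list summed to 471 ± 111 TPM in BIN and 125 ± 15.8 in T0, of which g4622 alone made up 423 ± 112 in BIN and 91.4 ± 19.5 in T0, and the other 6 genes 47.9 ± 0.707 in BIN and 33.4 ± 3.79 in T0 (SD, n = 3). The xylan list was lower in BIN, at 123 ± 6.81 TPM, than in T0, at 143 ± 13.4. This direction rested on the GH51 gene g7154, which alone made up 34.5 TPM in BIN and 102 in T0. The rest of the xylan list summed to more in BIN than in T0. The glucose transporters summed to 2408 ± 81.2 TPM in BIN and 1020 ± 46.0 in T0, the sugar-end-releasing list to 945 ± 59.6 in BIN and 424 ± 12.1 in T0, and the β-1,3- and β-1,6-glucan list to 9646 ± 248 in BIN and 4120 ± 355 in T0 (SD, n = 3). Most of the difference in the glucan list was the GH16 gene g949, at 4111 TPM in BIN and 218 in T0. These sums carry the TPM shift of all genes given above.

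**Figure D4:**
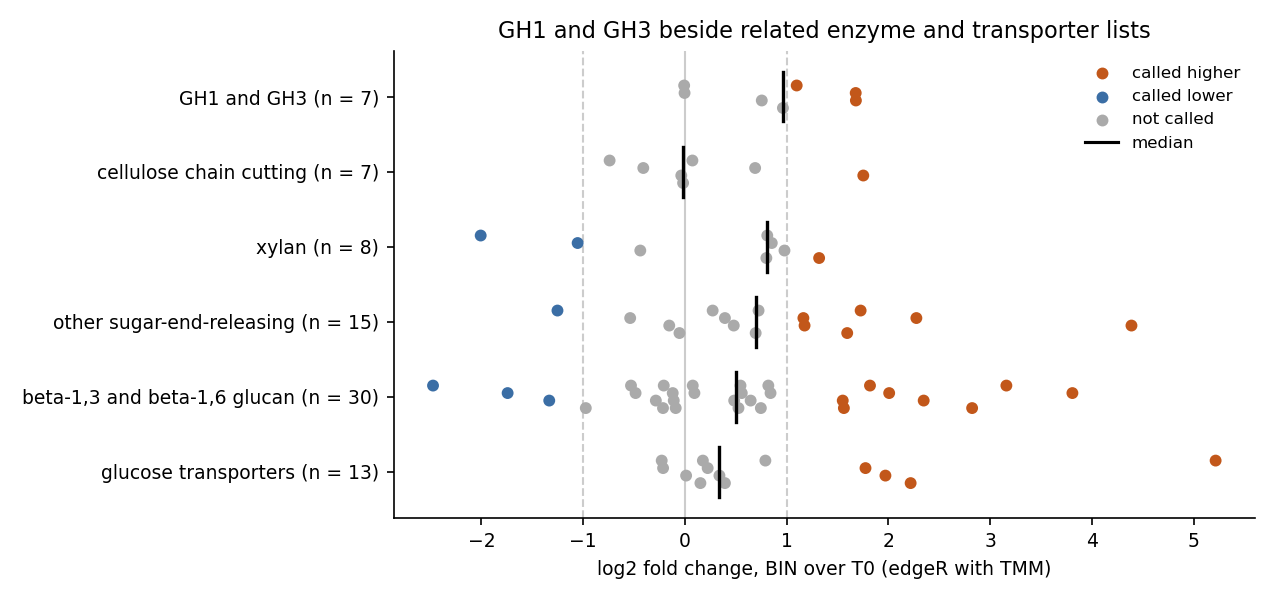
Log2 fold changes of BIN over T0 (x axis, edgeR with TMM) for the GH1 and GH3 genes and for 5 related lists. Each point is a gene, coloured by its call, black bars are medians, and dashed lines mark the threshold of 1 in either direction. The median of the GH1 and GH3 genes is 0.96, that of the chain-cutting enzymes -0.02, and the largest value is that of the transporter g6340, at 5.22.

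For each member, the gene most like it among the other 685 tested genes of the table was found as the one with the smallest Euclidean distance of mean-centred log2 CPM over the 6 libraries. The distances ranged from 0.12 to 0.24. For g2032 this was g3998, of glycosyltransferase family GT20, to which trehalose-6-phosphate synthases belong. Its log2 fold change was 1.56 with a standard error of 0.09, at 286 ± 19.7 CPM in BIN and 96.8 ± 6.91 in T0 (SD, n = 3). For g1578 it was g9975, listed as an oxalate decarboxylase, an enzyme that breaks down oxalate, at 1.70 with a standard error of 0.13. g10482 lay nearest to the GH35 gene g11423, of a family of β-galactosidases, at 1.16, which like g10482 lost its call after the gene-length correction, at 0.68. g11777 lay nearest to the GT90 gene g3798, at 0.90, and g7390 to the GH92 α-mannosidase gene g9899, at 0.68. The nearest gene to g3105 was the cytochrome P450 gene g11906, at 0.10, and that to g5210 the GH18 chitinase-family gene g7839, at 0.06. Because the distance used the same 6 libraries, the choice itself fixed that each of these genes has a fold change like that of its member.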

How the data were processed

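The authors trimmed reads (Trimmomatic 0.32), removed rRNA with SortMeRNA, aligned the rest to their genome assembly of the strain with TopHat2, and deposited integer counts for each gene model. The counting program and its use of strand are not given in the sources used here. How reads shared with near-identical genes were counted is therefore not known. TPM values deposited by the authors equalled these counts per unit of gene length, with each library brought to a sum of 1000000. All 10015 genes had at least 10 counts in every library, so genes silent in one condition were not analysed here, and edgeR's filterByExpr removed 0 genes.

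Counts were fitted over all genes with edgeR 4.0.16 under R 4.3.3 (TMM, robust glmQLFit, glmQLFTest, no replicate block). The standard error is the log2 fold change divided by the square root of F. The pairwise ratios used scipy 1.17.1. The 16 alternatives were DESeq2 1.42.0, RLE factors, library size alone, no filter, a mean of 1 TPM, glmTreat, limma 3.58.1 on log2 TPM with pseudocounts of 1 and 0.1, a lowess trend on gene length (span 0.3), a replicate block and each library left out. Named genes were the 7 members, the nearest gene of each (prior count of 2), and the highest and lowest called gene of each list. Members and lists were chosen with earlier results of these data known. Domains and functions came from the study's gene table, and 0 of the 7 gene numbers matched the RefSeq list of another strain, so positions and sequences are not given. The cultures are described as biological replicates.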

Additional observations from a re-analysis of the deposited data

How the results depend on the processing

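Over the 16 alternatives, 87 of 112 fold changes of the 7 genes kept their direction and their side of the threshold, those of g1578 and g2032 in all 16. By call alone, without regard to the sign of uncalled values, 102 of 112 were unchanged. Some alternatives could hardly differ from the main fit, so these counts are not counts of independent checks. The fit without a filter was identical to it, because filterByExpr removed 0 genes. glmTreat kept its fold changes and could alter only calls, and requiring a mean of 1 TPM left the fold changes almost the same. With limma on log2(TPM + 1) and log2(TPM + 0.1), 5 members were higher instead of 3, and over all genes 2136 and 2409 were higher (1134 with edgeR) and 730 and 769 lower (1457), against 737 and 916 with glmTreat, which is stricter by construction. The near-zero fold changes of g3105 and g5210 turned positive with library size alone (0.13 for both), on log2(TPM + 1) (0.39 and 0.40), on log2(TPM + 0.1) (0.43 for both) and with a replicate block (0.0055 and 0.00014), and ranged from -0.17 to 0.082 and from -0.074 to 0.037 with a library left out. Among 16 other named genes, 246 of 256 values kept their call, g7839 reversed to -0.13 with the length trend removed, and g11906 ranged from -0.020 to 0.18 with a library left out. Glycoside hydrolases called lower numbered 10 on log2(TPM + 1) instead of 17, and xylan genes called higher 4 and 5 on the TPM scales instead of 1. On summed CPM in place of TPM, the share of g2032 was 41.3% in BIN and 25.1% in T0. The cause of these shifts was not tested. The replicate block, with 1146 genes higher and 1441 lower, changed no call of a member. Cultures of the same number shared no deviation (correlations across genes of 0.035, 0.0088 and -0.10), so the number was not taken as a pairing. The lowest counts of a member were the 27 to 61 of g1578 in T0.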
